A study of Mus musculus with 20 samples.

Results

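Ribosome-associated mRNA of mouse hippocampal granule cells at postnatal day 15 (P15) was set against that at P10, an interval in which mice open their eyes. The libraries were chosen by the age in their labels, which gives 6 (3 at P15 and 3 at P10) of the 20 in the series, and the comparison ran across all genes. The P15 and P10 libraries all came from hippocampi of Rbp4-Cre:RiboTag mice and carry the same batch label, so neither genotype nor batch label separates them. In these animals Cre puts an HA tag on RPL22, one of the proteins of the large ribosomal subunit, and tagged ribosomes are taken out of the lysate together with the mRNA they hold. Rbp4-Cre decides which cells are sampled, and it is known to be active in other neurons too, among them deep-layer cortical projection neurons. For context, libraries of the same genotype from P5 (5), P7 (3), P21 (3) and P28 (3) were used. Of the P5 libraries 3 carry the batch label of the P15 and P10 libraries, the other 2 share another label with those of P7, and those of P21 and P28 share yet another. The labels give neither the sex of the animals nor any pooling, and do not tell whether the 3 libraries of an age stem from different animals; p-values therefore measure the spread between these samples only.

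Granule cells are the principal excitatory neurons of the dentate gyrus. After birth they extend mossy fiber axons, build dendrites and spines, and exchange a cytoskeleton and surface suited to growth for the receptors and channels of mature neurons. Neuronal activity induces a set of genes within minutes through calcium entry and kinases that act on factors such as CREB, SRF and MEF2. Myelin is laid down around hippocampal axons in the same weeks by oligodendrocytes, a cell type that the pull-down is not meant to sample.

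The libraries held 18.75 to 19.45 M counts at P15 and 16.69 to 16.84 M at P10, and a level of 3 counts in 1 library was worth 0.155 to 0.158 counts per M (CPM) at P15 and 0.181 at P10. Prox1, the transcription factor that defines granule cells, measured 569, 554 and 545 CPM at P15 and 532, 655 and 588 CPM at P10. The summed level of 29 granule cell genes was 5734 to 5968 CPM at P15 and 5136 to 6239 CPM at P10. RNA of other cell types was present as well. Summed astrocyte genes (19) reached 2112 to 2535 CPM at P15 and 1703 to 2186 CPM at P10, CA pyramidal genes (23) 1273 to 1509 CPM at P15 and 1271 to 2036 CPM at P10, and microglial genes (18) 65.4 to 92.5 CPM at P15 and 55.3 to 71.1 CPM at P10. In bulk libraries fewer cells of a type and less of its RNA per cell cannot be told apart.

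Several libraries stood apart in ways that age does not define. The summed level of 4 Y-linked genes was 59.5, 0.877 and 0.0526 CPM in P15 replicates 1, 2 and 3, and 0.724, 116 and 112 CPM in P10 replicates 1, 2 and 3. Xist, made from the inactive X chromosome, measured 57.4, 135 and 210 CPM at P15 and 151, 6.87 and 0.0602 CPM at P10, so that P15 replicate 1 held both kinds of RNA. Sptan1, which encodes a spectrin, measured 10200, 13100 and 12300 CPM at P15 and 11400, 12400 and 5430 CPM at P10. In P10 replicate 2 the summed CA pyramidal genes were 1271 CPM, against 2036 and 1956 CPM in the other P10 libraries. The first principal component of the 6 libraries (40.2% of the variance) did not separate the ages, with scores of -1.31, 19.2 and 32.6 at P15 and -16.9, 3.79 and -37.4 at P10.

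**Figure D1:**
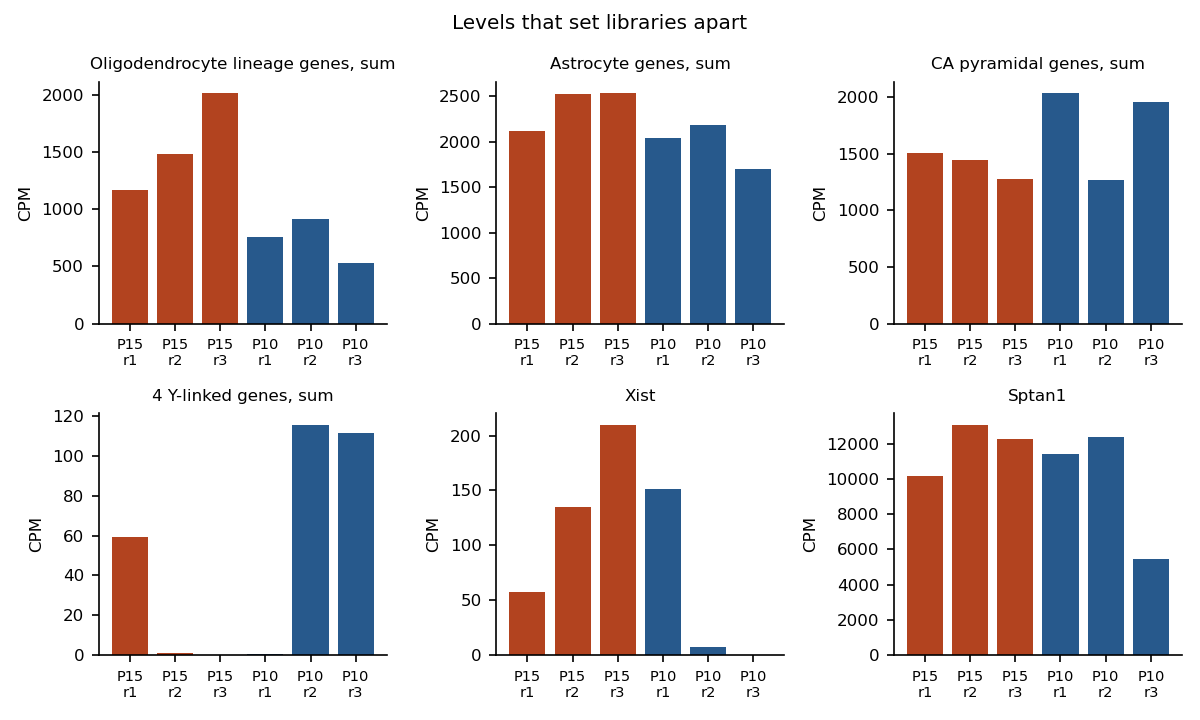
Level in counts per M (CPM, vertical axes from 0) of 3 marker lists, 4 Y-linked genes, Xist and Sptan1 in each library, with the 3 P15 libraries left of the 3 P10 libraries. Oligodendrocyte genes were higher in each P15 library (1166 to 2019 CPM) than in any P10 library (533 to 912 CPM), Y-linked RNA was 59.5 CPM in 1 P15 library and 112 to 116 CPM in 2 P10 libraries, and Sptan1 was lowest in P10 replicate 3.

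Of 15373 genes tested, 670 (4.36%) differed between P15 and P10 at an adjusted p below 0.05, 283 of them higher at P15 (1.84% of all tested) and 387 lower (2.52%). Most of these differences were small. The median fold among the called genes was 1.32 for those higher and 1.29 for those lower, and 36 rose and 21 fell by at least 2-fold. The 3 P15 and 3 P10 libraries did not overlap for 278 of the 283 and 358 of the 387, where 22.3% of all genes tested showed no overlap in either direction. The median log2 change of all genes tested was -0.0004. The gene with the smallest p of all, singled out after its values were seen, was Shtn1, whose product shootin1 couples actin to adhesions in growing axons, at 57.2, 58.6 and 55 CPM at P15 and 96.8, 85.4 and 110 CPM at P10 (log2 change -0.78, SE 0.077, adjusted p = 6.96e-06).

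These counts moved with single libraries. Higher and lower genes numbered 84 and 125 without P10 replicate 1, 552 and 921 without P10 replicate 2, and 42 and 66 without P10 replicate 3. They numbered 338 and 540 without P15 replicate 1, 105 and 138 without P15 replicate 2, and 57 and 70 without P15 replicate 3. With the Y-linked level of each library as a covariate 75 were higher and 148 lower, with the spectrin level as a covariate 104 and 159, and in a fit of the 6 libraries alone 103 and 107. Both covariates were chosen after seeing the data. Of 102 called genes that the naming rule picked, 22 kept their call under all alternatives tried and 80 lost it under at least 1, while 0 changed sign.

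**Figure D2:**
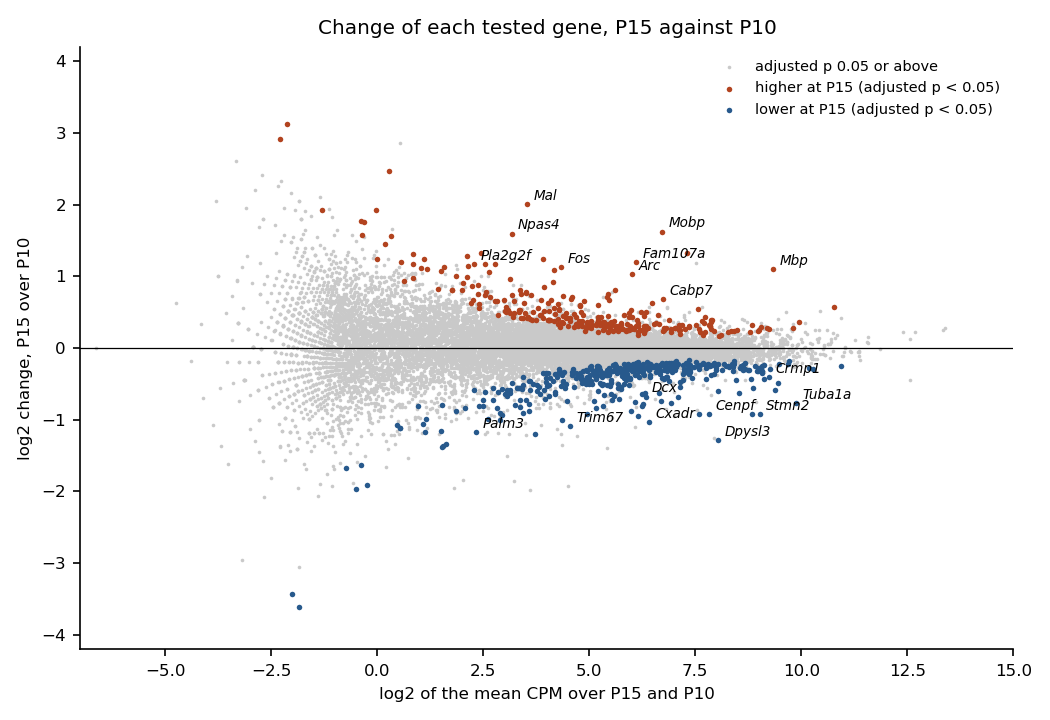
Fitted log2 change of P15 over P10 (vertical axis) against the log2 of the mean CPM of both ages (horizontal axis) for the 15373 genes tested, with the 283 higher and 387 lower at P15 in color. The labeled genes are ones the text describes, with Mal, Mobp and Npas4 far above 0 and Dpysl3 far below it.

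**Figure D3:**
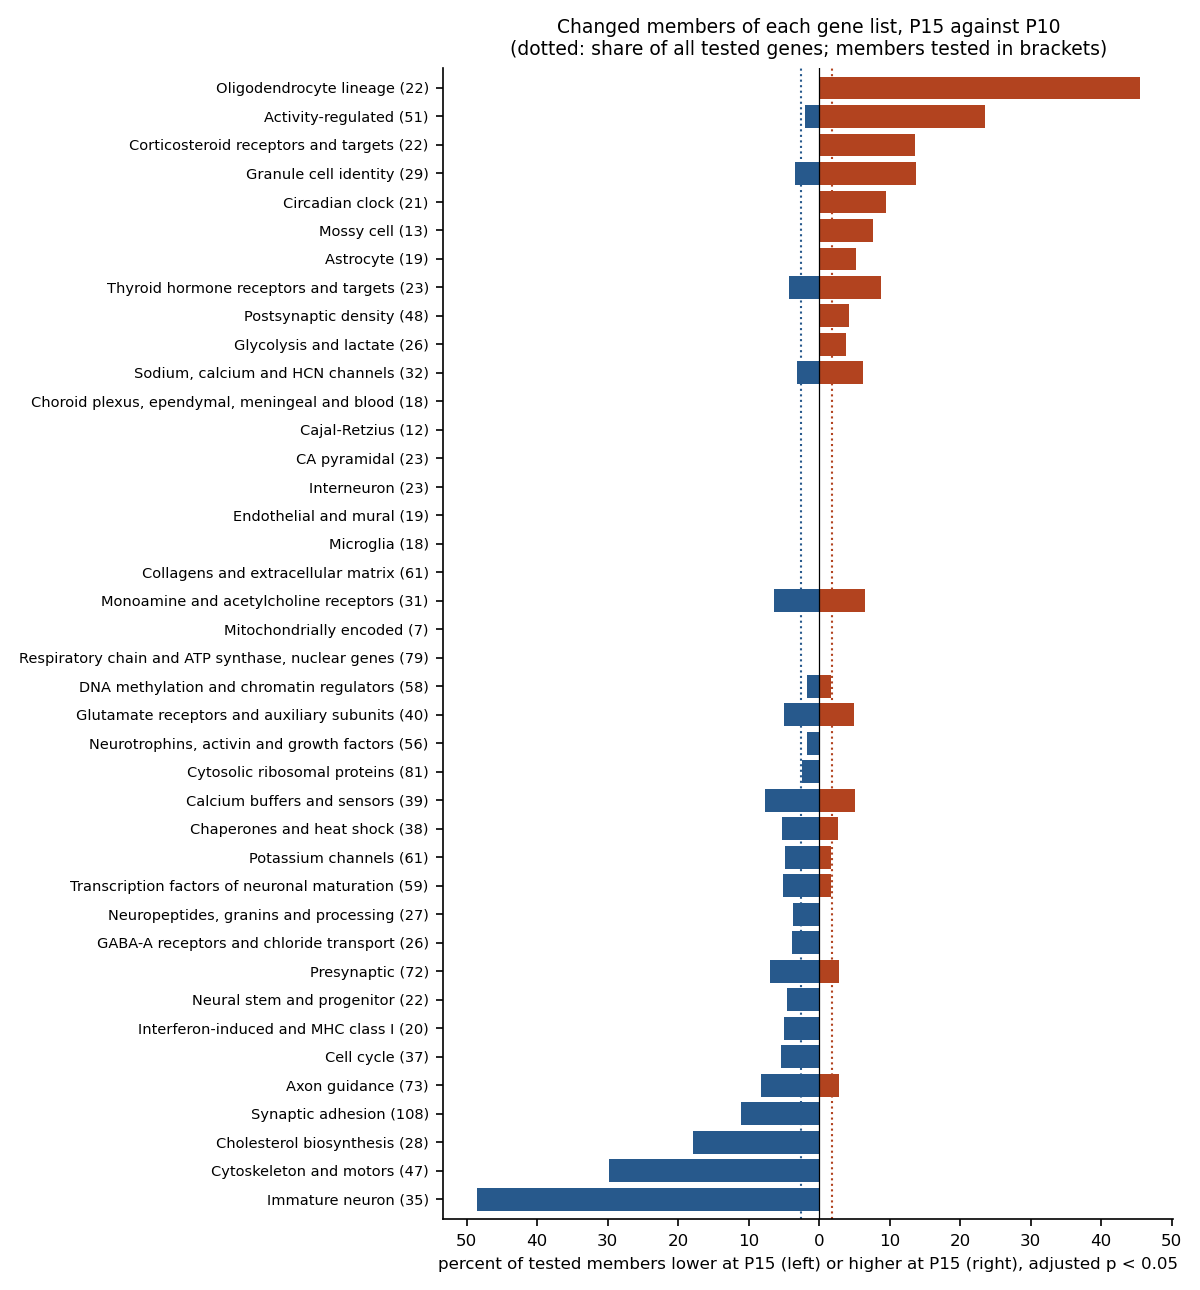
Percent of the tested members of each gene list that were lower at P15 (bars to the left) or higher at P15 (bars to the right) at an adjusted p below 0.05, with the number tested in brackets. Dotted lines mark the share of all tested genes, 2.52% lower and 1.84% higher. Immature neuron genes have the longest bar to the left (48.6%) and oligodendrocyte lineage genes the longest to the right (45.5%).

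Immature neuron genes had the highest share of lower members of any list. Of 35 tested, 17 (48.6%) were lower at P15 and 0 higher by edgeR, DESeq2 or limma-voom (1 higher at an unadjusted p below 0.05), with a median log2 change of -0.32 over the list. Dcx, a microtubule-associated protein of migrating and young neurons, measured 60.4, 60.4 and 65.2 CPM at P15 and 101, 91.2 and 105 CPM at P10. All P15 libraries lay below all P10 libraries (log2 change -0.68, SE 0.086, adjusted p = 0.000168). Crmp1, a collapsin response mediator that carries semaphorin signals in the growth cone, measured 539, 525 and 492 CPM at P15 and 690, 631 and 734 CPM at P10 (log2 change -0.40, SE 0.057, adjusted p = 0.000379). Its groups did not overlap either, with P10 replicate 2 the lowest of the P10 libraries.

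The related Dpysl3 had the lowest log2 change among the genes named by size. It measured 170, 157 and 130 CPM at P15 and 410, 256 and 451 CPM at P10 (log2 change -1.29, SE 0.18, adjusted p = 0.00188). Another family member, Dpysl5, averaged 133 ± 15.2 CPM at P15 and 253 ± 57.1 CPM at P10 (SD, n = 3 each; log2 change -0.93, SE 0.14, adjusted p = 0.00218). In both genes P10 replicate 2 lay nearest to the P15 libraries. The calls of Dcx and Crmp1 held under every alternative tried, whereas those of Dpysl3 and Dpysl5 were lost in the fit of the 6 libraries alone (adjusted p = 0.111 and 0.118).

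Stmn2, a tubulin-binding protein of growing axons, measured 420, 346 and 308 CPM at P15 and 772, 436 and 828 CPM at P10 (log2 change -0.92, SE 0.21, adjusted p = 0.0249). St8sia2, which adds polysialic acid to the adhesion molecule NCAM, averaged 5.29 ± 0.978 CPM at P15 and 10.1 ± 2.37 CPM at P10 (SD, n = 3 each; log2 change -0.93, SE 0.22, adjusted p = 0.027). Its substrate gene Ncam1 was among the 17 as well. The call of Stmn2 was lost without P10 replicate 1, P10 replicate 3, P15 replicate 2 or P15 replicate 3 (adjusted p = 0.0934 to 0.156), and that of St8sia2 without P10 replicate 1, P10 replicate 3, P15 replicate 2 or P15 replicate 3 (adjusted p = 0.107 to 0.162). The other members lower at P15 were Tuba1a, Basp1, Tubb2b, Marcksl1, Mllt11, Stmn4, Fxyd7, Tubb2a, Marcks and Tubb3. The count of 17 was 9 without P10 replicate 1, 5 without P10 replicate 3, 8 without P15 replicate 2, 5 without P15 replicate 3, 8 with the Y-linked covariate, 9 with the spectrin covariate and 4 in the 6 libraries alone.

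Cytoskeleton and motor genes were lower at P15 in 14 of 47 cases (29.8%) and higher in 0 by edgeR (1 by DESeq2, 1 by limma-voom and 2 at an unadjusted p below 0.05), with a median log2 change of -0.11. Tubulins made up much of this list, and 4 of the 14 (Tuba1a, Tubb2b, Tubb2a and Tubb3) stand in the immature list too. Tuba1a, the main alpha-tubulin of young neurons, measured 798, 686 and 618 CPM at P15 and 1299, 899 and 1373 CPM at P10 (log2 change -0.76, SE 0.13, adjusted p = 0.00552). Mapt, which encodes the axonal protein tau, measured 469, 474 and 488 CPM at P15 and 607, 540 and 644 CPM at P10 (log2 change -0.32, SE 0.065, adjusted p = 0.00639). Neither gene overlapped between ages. Tubulin genes are near-identical in parts, so reads may be divided among them in ways the files do not show. The call of Tubb2b was lost without P10 replicate 1, P10 replicate 3 or P15 replicate 3 (adjusted p = 0.0522 to 0.077), that of Mapt without P10 replicate 3 (adjusted p = 0.0738) and that of Tuba1a in the 6 libraries alone (adjusted p = 0.149). The count of 14 was 2 without P10 replicate 1, 1 without P10 replicate 3, 3 without P15 replicate 2, 2 without P15 replicate 3, 4 with the Y-linked covariate, 3 with the spectrin covariate and 1 in the 6 libraries alone.

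Among 73 axon guidance genes 6 (8.22%) were lower and 2 (2.74%) higher at P15. Trim67, a ubiquitin ligase that binds the netrin receptor DCC, measured 14.9, 14.8 and 15.2 CPM at P15 and 35.8, 24.6 and 34.7 CPM at P10 (log2 change -1.08, SE 0.14, adjusted p = 0.000522). The P15 libraries lay close together, below all P10 libraries, and the call held under every alternative. Robo1, a receptor for Slit, averaged 27.3 ± 1.90 CPM at P15 and 36.2 ± 5.63 CPM at P10 (SD, n = 3 each; log2 change -0.41, SE 0.096, adjusted p = 0.0183), a call lost without P10 replicate 1, P10 replicate 3, P15 replicate 2 or P15 replicate 3 (adjusted p = 0.082 to 0.167).

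Of 108 synaptic adhesion genes 12 (11.1%) were lower and 0 higher by edgeR, DESeq2 or limma-voom (6 higher at an unadjusted p below 0.05), with a median log2 change of -0.16. Lrfn2, which binds the scaffold PSD-95, measured 53.1, 52.1 and 48.9 CPM at P15 and 69.3, 64.2 and 65.1 CPM at P10 (log2 change -0.37, SE 0.062, adjusted p = 0.00176), a call kept under every alternative. Cntnap2, a relative of the neurexins, averaged 59.3 ± 8.33 CPM at P15 and 92.7 ± 14.3 CPM at P10 (SD, n = 3 each; log2 change -0.64, SE 0.12, adjusted p = 0.00835), a call lost without P10 replicate 3 (adjusted p = 0.0631). Others lower were Cdh13, Cntn1, L1cam, Lrrc4b, Nectin1, Sdc3, Cadm4, Adgrl3 and Pcdh9, and the call of Cdh13 was lost without P10 replicate 3, P15 replicate 2 or P15 replicate 3 (adjusted p = 0.0716 to 0.0961). The count of 12 was 5 without P10 replicate 1, 34 without P10 replicate 2, 1 without P10 replicate 3, 3 without P15 replicate 2, 2 without P15 replicate 3, 2 with the Y-linked covariate, 4 with the spectrin covariate and 3 in the 6 libraries alone.

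Of the 12 genes named for the lowest log2 changes, 4 were in the immature neuron list, 1 in the cytoskeleton list and 6 in no list. Cxadr, which encodes an adhesion molecule used as a receptor by coxsackieviruses, measured 60.7, 57 and 50.3 CPM at P15 and 131, 80.4 and 132 CPM at P10 (log2 change -1.03, SE 0.16, adjusted p = 0.00431). Palm3, a paralemmin, measured 2.62, 3.46 and 3.16 CPM at P15 and 8.02, 4.70 and 8.07 CPM at P10 (log2 change -1.17, SE 0.19, adjusted p = 0.00103). Rasgrp2, an exchange factor for the GTPase Rap, measured 9.27, 7.48 and 7.11 CPM at P15 and 23.6, 9.52 and 21.7 CPM at P10 (log2 change -1.20, SE 0.27, adjusted p = 0.0225). P10 replicate 2 lay nearest to the P15 libraries in all 3, as in Cpne5 and Tmsb10. The glutamate transporter gene Slc17a6, singled out after its values were seen, measured 23.5, 24.1 and 16 CPM at P15 and 50.7, 25.6 and 43.5 CPM at P10 (log2 change -0.91, SE 0.21, adjusted p = 0.0267). P10 replicate 2 was also the P10 library with the lowest CA pyramidal sum, and the part of other neurons in these differences was not tested. The call of Rasgrp2 was lost without P10 replicate 1, P10 replicate 3, P15 replicate 2 or P15 replicate 3 (adjusted p = 0.0903 to 0.141) that of Cpne5 without P10 replicate 1, P10 replicate 3, P15 replicate 1, P15 replicate 2 or P15 replicate 3 (adjusted p = 0.0545 to 0.217), that of Tmsb10 without P10 replicate 1, P10 replicate 3, P15 replicate 2 or P15 replicate 3 (adjusted p = 0.0964 to 0.168) and that of Cxadr in the 6 libraries alone (adjusted p = 0.121).

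A group of activity-regulated genes rose between P10 and P15. Of 51 tested, 12 (23.5%) were higher at P15 and 1 lower, with a median log2 change of 0.13 over the list. Npas4, a transcription factor induced by calcium entry, measured 12.6, 13.8 and 14.2 CPM at P15 and 4.70, 3.98 and 4.70 CPM at P10. The P15 libraries were 3.03-fold higher in the fit, with no overlap (log2 change 1.60, SE 0.28, adjusted p = 0.00424). Fos, the immediate early subunit of AP-1, measured 22.2, 34.5 and 26.2 CPM at P15 and 13.8, 10.7 and 13.4 CPM at P10 (log2 change 1.13, SE 0.21, adjusted p = 0.00604). Arc, which promotes the endocytosis of AMPA receptors, measured 68.1, 99.5 and 92.5 CPM at P15 and 48.2, 41.6 and 37.7 CPM at P10 (log2 change 1.03, SE 0.15, adjusted p = 0.00183). P15 replicate 1 was the lowest P15 library for each of these 3 genes and still lay above all P10 libraries.

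The members with the smallest p were Gadd45g, Arl4d and Ptgs2. Gadd45g, a stress- and activity-induced member of the GADD45 family, measured 28.1, 31.8 and 29.9 CPM at P15 and 16.5, 20.1 and 18.4 CPM at P10 (log2 change 0.71, SE 0.099, adjusted p = 0.000362). Arl4d, a small GTPase related to the ARF proteins, measured 23, 25.3 and 20.7 CPM at P15 and 10.6, 14.9 and 10.9 CPM at P10 (log2 change 0.92, SE 0.15, adjusted p = 0.00103). Ptgs2, the inducible cyclooxygenase of prostaglandin synthesis, measured 11.1, 12 and 11.8 CPM at P15 and 6.63, 6.62 and 4.58 CPM at P10 (log2 change 0.97, SE 0.15, adjusted p = 0.00103). None of these overlapped between ages. The other members higher at P15 were Btg2, Mapk4, Nr4a1, Junb, Egr2 and Ier5, the last with a call lost without P10 replicate 1, P10 replicate 3, P15 replicate 1, P15 replicate 2 or P15 replicate 3 (adjusted p = 0.0619 to 0.18). The 1 member lower was Lingo1, a receptor component that restrains axon growth and myelination (-0.22, SE 0.064, adjusted p = 0.0435), a call lost without P10 replicate 1, P10 replicate 3, P15 replicate 2 or P15 replicate 3 (adjusted p = 0.164 to 0.215).

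Other genes known to respond to activity gave no call. Egr1, a zinc finger factor, averaged 142 ± 3.88 CPM at P15 and 130 ± 3.01 CPM at P10 (log2 change 0.13, SE 0.10, adjusted p = 0.516). Bdnf, a neurotrophin gene with activity-dependent promoters, averaged 121 ± 2.90 CPM at P15 and 120 ± 4.07 CPM at P10 (log2 change 0.01, SE 0.071, adjusted p = 0.934). Nptx2, a pentraxin that clusters AMPA receptors, averaged 27.8 ± 0.303 CPM at P15 and 25.5 ± 0.867 CPM at P10 (SD, n = 3 each, here and for Egr1 and Bdnf; log2 change 0.12, SE 0.11, adjusted p = 0.556). The count of 12 was 8 without P10 replicate 3, 8 to 14 over all single libraries left out, 9 with the Y-linked covariate, 10 with the spectrin covariate and 9 in the 6 libraries alone. Npas4, Fos, Gadd45g, Arl4d and Ptgs2 kept their calls in all of these, and Arc lost its call in the 6 libraries alone (adjusted p = 0.0607). In GENCODE vM21 on mm10, protein-coding Npas4 lies on the minus strand of chromosome 19 from 4984355 to 4990316, Fos on the plus strand of chromosome 12 from 85473890 to 85477273 and Arc on the minus strand of chromosome 15 from 74669083 to 74672570.

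Promoter windows from RefSeq (GRCm38.p6, 250 bases before to 50 after a start) were available for 10 of the 12 activity-regulated genes higher at P15. They were searched because the cyclic AMP response element (CRE) and the CArG box are sites through which CREB and SRF are known to act on such genes. The full CRE, TGACGTCA, stood in windows of 2 of the 10 (20%), of 4 of 27 other members of the list (14.8%) and of 3.45% of 11815 tested genes with a window. The CArG box (CC, then 6 bases of A or T, then GG) stood in a window of 1 of the 10, Egr2, and of 1.55% of all. An AP-1 site, TGANTCA, stood in 0 of the 10 and in 6.05% of all, and an E-box of the form CANCTG in 5 of the 10 and in 49.4% of all. Over all genes higher at P15 with a window (231) the CRE share was 2.6%. Both strands were searched, a gene counts where any of its windows holds the letters, motifs may overlap, and a match says nothing of binding.

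The windows of 4 of these genes follow, 5′ to 3′ on the strand of the gene, with a full CRE or CArG box in capitals. That of Arl4d (chr11:101665291-101665590, plus strand) holds a CRE 26 bases before the start, that of Btg2 (chr1:134079106-134079405, minus strand) a CRE 166 bases before it, and that of Egr2 (chr10:67537619-67537918, plus strand, 1 of several) a CArG box 72 bases before it. Npas4 (chr19:4989922-4990221, minus strand), the riser with the highest log2 change in this list, holds neither in its window.
Arl4d: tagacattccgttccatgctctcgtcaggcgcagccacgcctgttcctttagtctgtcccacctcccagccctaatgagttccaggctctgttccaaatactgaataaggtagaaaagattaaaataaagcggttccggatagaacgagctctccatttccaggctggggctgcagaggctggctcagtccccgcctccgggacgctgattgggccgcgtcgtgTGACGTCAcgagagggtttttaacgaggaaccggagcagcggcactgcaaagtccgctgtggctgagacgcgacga
Btg2: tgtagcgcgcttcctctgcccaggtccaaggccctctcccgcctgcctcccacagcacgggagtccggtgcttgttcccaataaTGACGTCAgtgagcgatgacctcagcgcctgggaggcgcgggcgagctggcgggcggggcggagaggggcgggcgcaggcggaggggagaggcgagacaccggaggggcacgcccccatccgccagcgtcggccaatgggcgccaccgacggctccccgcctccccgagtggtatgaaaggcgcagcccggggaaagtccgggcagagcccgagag
Egr2: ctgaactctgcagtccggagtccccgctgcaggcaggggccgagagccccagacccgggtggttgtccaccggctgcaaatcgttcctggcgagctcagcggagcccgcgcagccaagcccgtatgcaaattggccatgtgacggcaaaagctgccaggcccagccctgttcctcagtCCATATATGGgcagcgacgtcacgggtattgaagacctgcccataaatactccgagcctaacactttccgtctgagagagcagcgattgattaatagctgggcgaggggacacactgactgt
Npas4: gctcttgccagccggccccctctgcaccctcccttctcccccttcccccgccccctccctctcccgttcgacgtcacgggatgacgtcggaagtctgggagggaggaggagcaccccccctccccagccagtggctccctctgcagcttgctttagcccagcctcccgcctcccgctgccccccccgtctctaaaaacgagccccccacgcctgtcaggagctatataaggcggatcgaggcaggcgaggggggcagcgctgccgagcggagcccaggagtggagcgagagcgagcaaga

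Btg2, an antiproliferative gene, and Egr2, a zinc finger factor, are shown for their motifs, a choice made with their values known. Btg2 measured 51.7, 61.5 and 48.9 CPM at P15 and 30.3, 38.2 and 33.6 CPM at P10 (log2 change 0.67, SE 0.11, adjusted p = 0.00165). Egr2 measured 5.45, 10.5 and 9.05 CPM at P15 and 2.89, 4.09 and 5.06 CPM at P10 (log2 change 1.05, SE 0.27, adjusted p = 0.0272). Neither gene overlapped between ages, and P15 replicate 1 came close to P10 replicate 3 in Egr2.

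**Figure D4:**
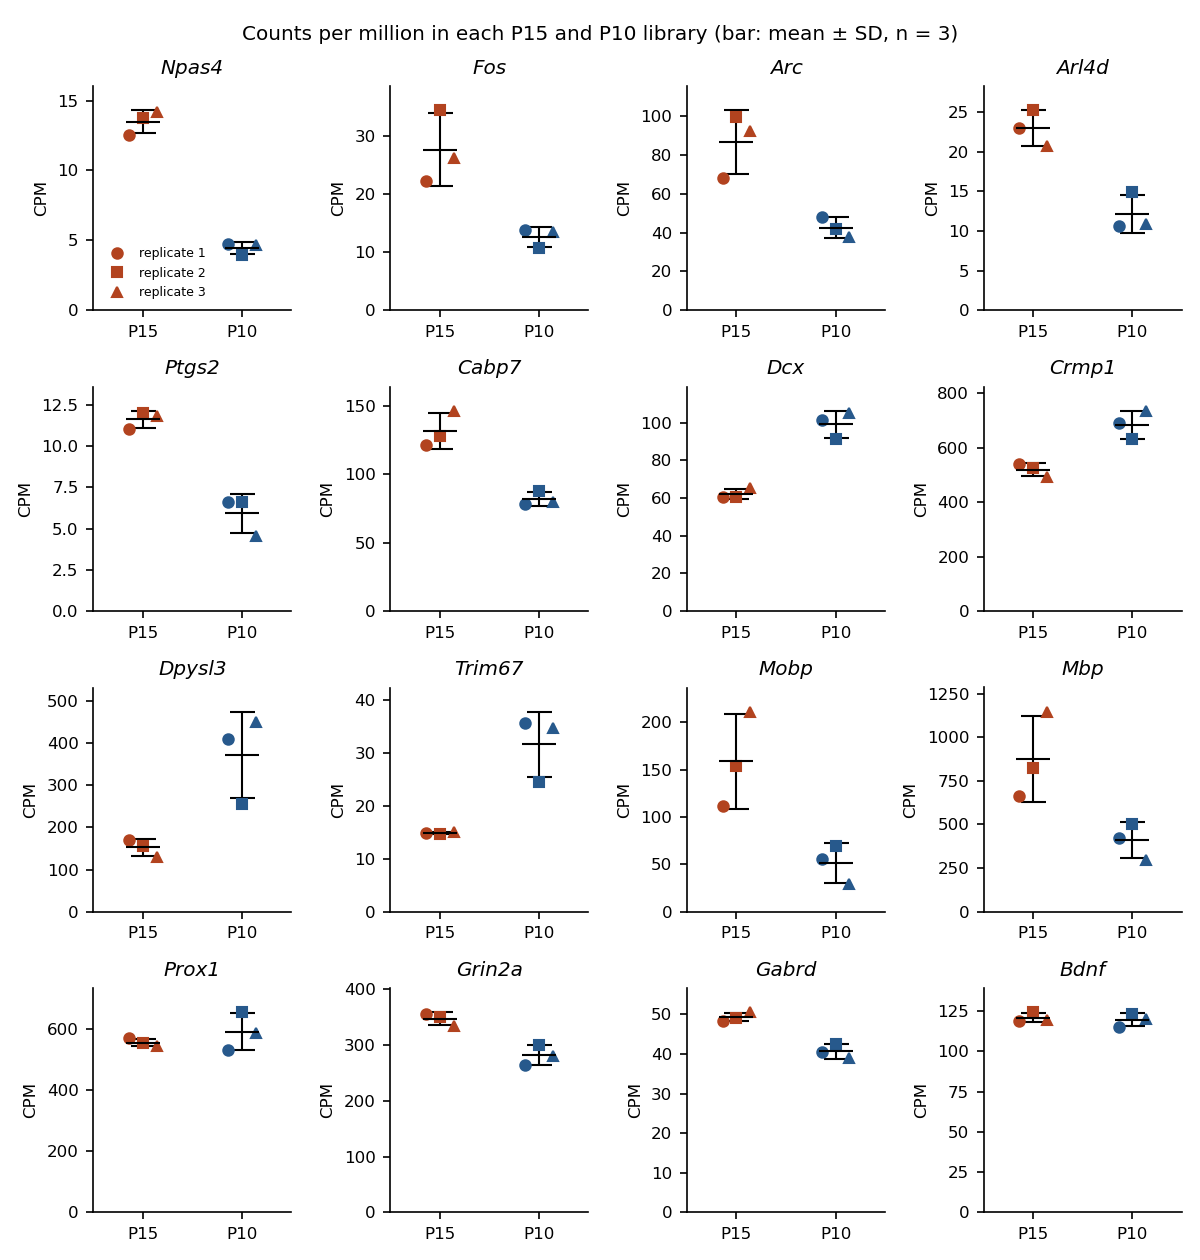
Level in CPM (vertical axes from 0) of 16 genes in each P15 library (left) and each P10 library (right), with bars for the mean ± SD of 3 libraries. Npas4, Fos, Arc, Arl4d, Ptgs2 and Cabp7 were higher in every P15 library, Dcx, Crmp1, Dpysl3 and Trim67 lower in each, and Prox1 and Bdnf overlapped between ages.

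Of 29 granule cell identity genes 4 were higher (13.8%) and 1, Marcks, lower at P15 (3.45%), with a median log2 change of 0.11. Pla2g2f, a secreted phospholipase, measured 6.60, 6.76 and 6.89 CPM at P15 and 2.29, 3.25 and 3.43 CPM at P10 (log2 change 1.17, SE 0.17, adjusted p = 0.000412). Glis3, a Krüppel-like zinc finger factor, averaged 13.2 ± 1.62 CPM at P15 and 7.81 ± 1.34 CPM at P10 (SD, n = 3 each; log2 change 0.75, SE 0.15, adjusted p = 0.00472). Lct, which encodes lactase, measured 112, 115 and 114 CPM at P15 and 76.1, 92.5 and 78.6 CPM at P10 (log2 change 0.46, SE 0.11, adjusted p = 0.019). The groups overlapped in none of these, and Trpc6, a cation channel gene, was the remaining riser. The call of Marcks was lost without P10 replicate 3, P15 replicate 2 or P15 replicate 3 (adjusted p = 0.107 to 0.302). Prox1 (log2 change -0.09, SE 0.089, adjusted p = 0.618) and Calb1, which encodes the calcium buffer calbindin (log2 change -0.07, SE 0.091, adjusted p = 0.707), gave no call. The call of Pla2g2f held under every alternative, that of Glis3 was lost without P10 replicate 3 (adjusted p = 0.0576), and that of Lct without P10 replicate 1, P10 replicate 3, P15 replicate 2 or P15 replicate 3 (adjusted p = 0.0633 to 0.114).

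Calcium sensors held the smallest adjusted p among the genes named by rule. Cabp7, a calmodulin relative that regulates phosphatidylinositol 4-kinase, measured 121, 128 and 147 CPM at P15 and 78.6, 88.2 and 79.7 CPM at P10 (log2 change 0.68, SE 0.072, adjusted p = 1.03e-05). Hpca, the sensor hippocalcin, measured 1057, 1106 and 1146 CPM at P15 and 817, 936 and 813 CPM at P10 (log2 change 0.37, SE 0.070, adjusted p = 0.00436). In both genes each P15 library lay above each P10 library, and both calls held under every alternative. Over the 39 calcium buffer and sensor genes 2 were higher and 3 lower (5.13% and 7.69%), among the lower ones Slc8a3, a sodium-calcium exchanger, at 21.9 ± 0.378 CPM at P15 and 29.4 ± 3.0 CPM at P10 (SD, n = 3 each; log2 change -0.42, SE 0.093, adjusted p = 0.0111). The call of Slc8a3 was lost without P10 replicate 1, P10 replicate 3, P15 replicate 2 or P15 replicate 3 (adjusted p = 0.0532 to 0.0745).

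Glutamate receptor genes gave calls in both directions. Of 40 receptor and auxiliary genes 2 were higher (Cacng7 and Nptx1) and 2 lower (Grin2d among them) at P15, 5% each. Over all genes tested 1.84% were higher and 2.52% lower. Grin2d, an NMDA receptor subunit of early development, measured 11.8, 11.2 and 10.7 CPM at P15 and 18.6, 15.4 and 14.4 CPM at P10 (log2 change -0.52, SE 0.10, adjusted p = 0.0061), a call lost without P10 replicate 1 or P15 replicate 3 (adjusted p = 0.052 to 0.0582). The call of Cacng7 was lost without P10 replicate 1, P10 replicate 3 or P15 replicate 3 (adjusted p = 0.0632 to 0.206), and that of Nptx1 without P10 replicate 1, P10 replicate 3, P15 replicate 1, P15 replicate 2 or P15 replicate 3 (adjusted p = 0.0746 to 0.189). Grin2a, the subunit of mature NMDA receptors, measured 356, 351 and 334 CPM at P15 and 264, 299 and 281 CPM at P10. These groups did not overlap, yet the difference missed the threshold (log2 change 0.30, SE 0.11, adjusted p = 0.121). It passed under 3 of 18 alternatives (lowest adjusted p = 0.0318). Grin2b, the subunit that prevails early, measured 736, 667 and 663 CPM at P15 and 694, 732 and 739 CPM at P10, with overlap (log2 change -0.07, SE 0.083, adjusted p = 0.689). The AMPA receptor gene Gria1 averaged 1061 ± 26.4 CPM at P15 and 1003 ± 79 CPM at P10 and Gria2 564 ± 7.51 CPM at P15 and 541 ± 23.5 CPM at P10 (SD, n = 3 each; adjusted p = 0.497 and 0.574).

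Among 26 genes for GABA-A receptors and for transport of chloride 1 was called, Gabrg3, a gamma subunit gene, at 14.4 ± 1.56 CPM at P15 and 19.2 ± 1.57 CPM at P10 (SD, n = 3 each; log2 change -0.42, SE 0.11, adjusted p = 0.0287), a call lost without P10 replicate 1, P10 replicate 3, P15 replicate 2 or P15 replicate 3 (adjusted p = 0.0793 to 0.186). Gabrd, the delta subunit of the extrasynaptic receptors through which mature granule cells receive tonic inhibition, measured 48.3, 49.1 and 50.5 CPM at P15 and 40.6, 42.5 and 38.9 CPM at P10 (log2 change 0.28, SE 0.087, adjusted p = 0.0674). Its groups did not overlap, though the difference missed the threshold. Under 7 of 18 alternatives it passed (lowest adjusted p = 0.0345). The chloride exporter gene Slc12a5 averaged 559 ± 30.3 CPM at P15 and 550 ± 8.63 CPM at P10, and the importer gene Slc12a2 20.4 ± 0.781 CPM at P15 and 20.7 ± 2.08 CPM at P10 (SD, n = 3 each; adjusted p = 0.862 and 0.92).

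Of 48 postsynaptic density genes 2 were higher (4.17%) and 0 lower by edgeR, DESeq2 or limma-voom (5 lower at an unadjusted p below 0.05). They were Homer3, a scaffold for group I metabotropic receptors, at 33.1 ± 3.08 CPM at P15 and 22.1 ± 4.30 CPM at P10 (SD, n = 3 each; log2 change 0.58, SE 0.12, adjusted p = 0.00917), and Iqsec2, an exchange factor for ARF6, at 370 ± 4.41 CPM at P15 and 315 ± 21.7 CPM at P10 (SD, n = 3 each; log2 change 0.23, SE 0.061, adjusted p = 0.0289). The call of Homer3 was lost without P10 replicate 1, P10 replicate 3 or P15 replicate 3 (adjusted p = 0.0595 to 0.0801), and that of Iqsec2 without P10 replicate 1, P10 replicate 3, P15 replicate 2 or P15 replicate 3 (adjusted p = 0.0769 to 0.227). Of 72 presynaptic genes 5 were lower (6.94%) and 2 higher (2.78%). Doc2a, a calcium sensor of transmitter release, measured 33.8, 26.5 and 27.3 CPM at P15 and 55.8, 42.4 and 54.6 CPM at P10 (log2 change -0.80, SE 0.12, adjusted p = 0.00114). Erc1, a protein of the active zone, averaged 144 ± 4.01 CPM at P15 and 185 ± 12.9 CPM at P10 (SD, n = 3 each; log2 change -0.36, SE 0.065, adjusted p = 0.0028). Doc2a and Erc1 kept their calls under every alternative.

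Of 61 potassium channel genes 3 were lower (4.92%) and 1 higher (1.64%). Kcnip1, an auxiliary subunit of A-type channels, averaged 26.1 ± 1.86 CPM at P15 and 37.1 ± 3.52 CPM at P10 (SD, n = 3 each; log2 change -0.51, SE 0.086, adjusted p = 0.00169), and Kcna6, a Kv1 subunit, 61.4 ± 1.60 CPM at P15 and 81.6 ± 7.59 CPM at P10 (SD, n = 3 each; log2 change -0.41, SE 0.073, adjusted p = 0.00272). Of 32 sodium, calcium and HCN channel genes 2 were higher and 1 lower, Hcn3, a pacemaker channel gene, at 9.69, 7.22 and 9.26 CPM at P15 and 16.3, 12.7 and 16.2 CPM at P10 (log2 change -0.79, SE 0.12, adjusted p = 0.000821). The groups overlapped in none of Kcnip1, Kcna6 and Hcn3, and their calls held under every alternative.

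Cholesterol synthesis genes were lower at P15 in 5 of 28 cases (17.9%) and higher in 0 by edgeR, DESeq2, limma-voom or an unadjusted p below 0.05, with a median log2 change of -0.25. Sqle, squalene epoxidase, measured 53.7, 48 and 48.8 CPM at P15 and 94.9, 59.6 and 99.5 CPM at P10 (log2 change -0.76, SE 0.16, adjusted p = 0.0151). Nsdhl, a sterol dehydrogenase, averaged 17.3 ± 2.06 CPM at P15 and 25.4 ± 4.14 CPM at P10 (SD, n = 3 each; log2 change -0.56, SE 0.12, adjusted p = 0.00844). P10 replicate 2 lay nearest to the P15 libraries in both. The call of Sqle was lost without P10 replicate 1, P10 replicate 3, P15 replicate 2 or P15 replicate 3 (adjusted p = 0.0696 to 0.0987), and that of Nsdhl without P10 replicate 1, P10 replicate 3 or P15 replicate 3 (adjusted p = 0.0512 to 0.0728). Dhcr7, whose call was lost without P10 replicate 1, P10 replicate 3, P15 replicate 2 or P15 replicate 3 (adjusted p = 0.0558 to 0.114), and Hmgcs1 were among the rest. The count of 5 was 0 without P10 replicate 1, P10 replicate 3 or P15 replicate 3, 1 without P15 replicate 2, 11 without P10 replicate 2, 1 with the Y-linked covariate, 3 with the spectrin covariate and 0 in the 6 libraries alone. Of 79 nuclear genes of the respiratory chain and ATP synthase 0 were called by edgeR, DESeq2 or limma-voom (2 higher and 6 lower at an unadjusted p below 0.05), with a median log2 change of -0.05.

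Of 22 genes of corticosteroid receptors and targets 3 were higher (13.6%) and 0 lower by edgeR (1 lower by DESeq2, 0 by limma-voom and 1 at an unadjusted p below 0.05), with a median log2 change of 0.22. They were Arl4d, also counted as activity-regulated, Sgk1, a kinase induced by corticosteroids, at 45.2 ± 4.51 CPM at P15 and 35.1 ± 3.89 CPM at P10 (SD, n = 3 each; log2 change 0.37, SE 0.10, adjusted p = 0.0372), and Errfi1, an inhibitor of EGF receptor signaling, at 59.9 ± 7.02 CPM at P15 and 47 ± 1.26 CPM at P10 (SD, n = 3 each; log2 change 0.35, SE 0.10, adjusted p = 0.0495). Fkbp5, a co-chaperone of the glucocorticoid receptor, averaged 115 ± 2.10 CPM at P15 and 97.5 ± 9.38 CPM at P10 (SD, n = 3 each). Its difference missed the threshold (log2 change 0.23, SE 0.074, adjusted p = 0.0685) but passed under 6 of 18 alternatives (lowest adjusted p = 0.0133). Of 21 clock genes Tef, a PAR-domain factor of the output arm, and Bhlhe40, a repressor in the core loop, were higher (9.52%; log2 changes 0.23 and 0.28, adjusted p = 0.0262 and 0.0443). The call of Sgk1 was lost without P10 replicate 1, P10 replicate 3, P15 replicate 1 or P15 replicate 3 (adjusted p = 0.128 to 0.245), that of Errfi1 without P10 replicate 1, P10 replicate 3, P15 replicate 2 or P15 replicate 3 (adjusted p = 0.148 to 0.181), that of Tef without P10 replicate 1, P10 replicate 3, P15 replicate 1, P15 replicate 2 or P15 replicate 3 (adjusted p = 0.0512 to 0.174) and that of Bhlhe40 without P10 replicate 1, P10 replicate 3, P15 replicate 2 or P15 replicate 3 (adjusted p = 0.112 to 0.233).

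Myelin genes gave the highest share of risers of any list. Of 22 oligodendrocyte lineage genes 10 (45.5%) were higher at P15 and 0 lower by edgeR, DESeq2, limma-voom or an unadjusted p below 0.05, with a median log2 change of 0.78. Of the 12 genes named for the highest log2 changes 5 belong to this list. Mobp, a protein of the compact myelin sheath, measured 111, 154 and 211 CPM at P15 and 55.6, 69.7 and 29 CPM at P10 (log2 change 1.62, SE 0.28, adjusted p = 0.00731). Mal, a lipid raft protein of myelin, measured 11.9, 18.2 and 25.5 CPM at P15 and 5.30, 6.20 and 2.35 CPM at P10 (log2 change 2.0, SE 0.30, adjusted p = 0.00272). Mbp, myelin basic protein, measured 664, 821 and 1148 CPM at P15 and 423, 505 and 299 CPM at P10 (log2 change 1.10, SE 0.20, adjusted p = 0.00907). In all 3 the level was highest in P15 replicate 3 and lowest in P10 replicate 3, and the groups did not overlap.

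All 22 members had a log2 change above 0, at 0.11 to 2.47. Pdgfra, the receptor of the precursors, measured 11, 14.1 and 17.3 CPM at P15 and 15.4, 14.3 and 9.51 CPM at P10, and the lineage factor Olig2 7.23, 9.19 and 11.5 CPM at P15 and 8.32, 10.7 and 6.14 CPM at P10, both with overlap and no call (adjusted p = 0.79 and 0.714; these 2 genes were chosen after their values were seen). The summed level of the list was 1166, 1483 and 2019 CPM in the P15 libraries and 756, 912 and 533 CPM in the P10 libraries, and each of the 22 members had counts in at least 1 of the 6 libraries. Outside the lists, Fam107a measured 68.3, 98.8 and 122 CPM at P15 and 44.9, 48.1 and 32.6 CPM at P10 and Tmem88b 4.61, 6.86 and 6.79 CPM at P15 and 2.59, 3.49 and 2.17 CPM at P10. P15 replicate 1 was the lowest P15 library and P10 replicate 3 the lowest P10 library in both genes, as in the oligodendrocyte sum, and the part of other cells in these differences was not tested. The oligodendrocyte count of 10 was 5 without P10 replicate 1, P10 replicate 3 or P15 replicate 3, 3 with the Y-linked covariate (where Mobp and Mbp had adjusted p = 0.057 and 0.0606) and 2 in the 6 libraries alone. Mal, Mobp, Mbp and Fam107a lost their calls in the 6 libraries alone (adjusted p = 0.123, 0.18, 0.187 and 0.144). Mobp, Mbp and Fam107a also lost theirs in a fit of the 9 libraries with the batch label of P15 and P10.

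Of 19 astrocyte genes 1 was higher by edgeR, 5 by DESeq2, 2 by limma-voom and 12 at an unadjusted p below 0.05, with 0 lower by any of these and a median log2 change of 0.34. The 1 called was Ndrg2, at 95.5 ± 16.4 CPM at P15 and 67.3 ± 9.77 CPM at P10 (SD, n = 3 each; log2 change 0.50, SE 0.13, adjusted p = 0.0404), a call lost without P10 replicate 1, P10 replicate 3, P15 replicate 2 or P15 replicate 3 (adjusted p = 0.111 to 0.184). Lists of microglial (18), interneuron (23), CA pyramidal (23) and Cajal-Retzius genes (12) gave 0 calls in either direction by edgeR, DESeq2 or limma-voom, with 2, 2, 2 and 1 higher and 0, 1, 2 and 1 lower at an unadjusted p below 0.05, in that order.

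The step from P10 to P15 was then set beside the step from P5 to P10. P10 libraries enter both, and the difference of the steps was tested itself. Of all genes, 9442 (61.4%) differed between P10 and P5, 4733 of them higher at P10 (30.8% of all tested) and 4709 lower (30.6%). A difference of the steps was called in 5664 (36.8%), 2369 (15.4%) above 0 and 3295 (21.4%) below. Within the batch of the P15 and P10 libraries (9 libraries, 3 of them of P5) 2394 differences were above 0 and 3150 below. The difference is the log2 change from P10 to P15 minus that from P5 to P10. With total counts in place of trimmed-mean factors the median of all genes moved to 0.137, and 3276 differences were above 0 and 2260 below. For nuclear genes of the respiratory chain and ATP synthase the later step gave 0 calls and the earlier step 74 risers of 79 (median log2 change 0.53), and the difference was below 0 in 72. Among 48 postsynaptic density genes the later step had 2 risers and the earlier step 44, with a difference below 0 in 40. Among 61 potassium channel genes these numbers were 1, 42 and 31.

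Single genes are given with both steps and their difference. Grin2a had a log2 change of 0.30 in the later step and 2.41 in the earlier one (difference -2.11, SE 0.18, adjusted p = 1.21e-07). Slc30a3, the zinc transporter of mossy fiber vesicles, had 0.10 in the later and 1.84 in the earlier (difference -1.74, SE 0.12, adjusted p = 2.23e-10). Dcx had -0.68 in the later step and -3.0 in the earlier (difference 2.32, SE 0.15, adjusted p = 2.85e-10). Of the 35 immature neuron genes 26 were lower and 5 higher at P10 than at P5, and the difference was above 0 in 16 and below 0 in 4. Npas4 had 1.60 in the later step and 0.60 in the earlier (difference 0.99, SE 0.53, adjusted p = 0.146), and Fos 1.13 and 2.13 (difference -1.0, SE 0.39, adjusted p = 0.0536). Of the 51 activity-regulated genes 12 rose in the later step and 31 in the earlier, where 30.8% of all genes tested rose. The difference was above 0 in 4 members and below 0 in 22.

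The genes with the highest differences of the steps, by rule, were Cenpf, Efs, Mgam, Lama4, B3gnt5 and Gprin2, at 2.60 to 3.10. Cenpf, a kinetochore protein, averaged 157 ± 12.5 CPM at P15, 298 ± 38.3 CPM at P10 (SD, n = 3 each) and 4829 ± 323 CPM at P5 (SD, n = 5). Those with the lowest were Mobp, Cplx3, Tnnt2, Ptgs2, Anxa11 and Ankrd33b, at -6.70 to -3.45. In the 3 P5 libraries of the same batch label Mobp, Tnnt2 and Ptgs2 averaged 0.155, 0.212 and 0.174 CPM. At P15 and P10 3 counts were worth 0.155 to 0.181 CPM, so the sizes of these 3 differences are poorly resolved. Cplx3, a complexin known from ribbon synapses and subplate neurons, measured 5.71, 4.64 and 2.58 CPM at P15 and 17.4, 8.43 and 10.8 CPM at P10, and averaged 1.95 ± 1.54 CPM at P5 (SD, n = 5). Its later step gave no call (adjusted p = 0.121) but passed the threshold under 2 of 18 alternatives. Its earlier step had a fitted log2 change of 3.28. With the batch term that value rests in effect on the 3 P5 libraries of the P10 batch label, not on all 5. With the spectrin level as a covariate the difference of the steps was above 0 in 1113 genes and below 0 in 1938, and without P10 replicate 3 above 0 in 1532.

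Libraries outside the comparison gave the later course. Of the 283 genes higher at P15, 236 (83.4%) had every P21 and P28 library above every P5 library, where 29.2% of all genes did. Of the 387 lower at P15, 361 (93.3%) had every P21 and P28 library below every P5 library, where 29.5% of all genes did. The P21 and P28 libraries carry another batch label than those of P10 and P15, so that age and batch cannot be told apart there. Among the activity-regulated risers 9 of 12 (75%) had their highest mean of the 6 ages at P15, against 70 of all 283 risers (24.7%) and 8.14% of all genes tested.

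Npas4 averaged 3.03 ± 1.18 CPM at P5 (SD, n = 5) and, with n = 3, 5.61 ± 1.42 CPM at P7, 4.46 ± 0.418 CPM at P10, 13.5 ± 0.826 CPM at P15, 6.17 ± 2.09 CPM at P21 and 4.67 ± 1.13 CPM at P28. Fos averaged 3.69 ± 1.28, 9.78 ± 1.91, 12.6 ± 1.72, 27.6 ± 6.27, 9.46 ± 2.71 and 10.9 ± 2.0 CPM at the same ages. For both genes the P15 mean was the highest, and for Npas4 the P7 mean lay above that of P10. Cabp7 averaged 20.7 ± 2.71, 38 ± 3.50, 82.2 ± 5.27, 132 ± 13.1, 186 ± 9.34 and 175 ± 10.5 CPM at these ages, with the highest mean at P21. None of the 4 granule cell identity genes that rose had its highest mean at P15.

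**Figure D5:**
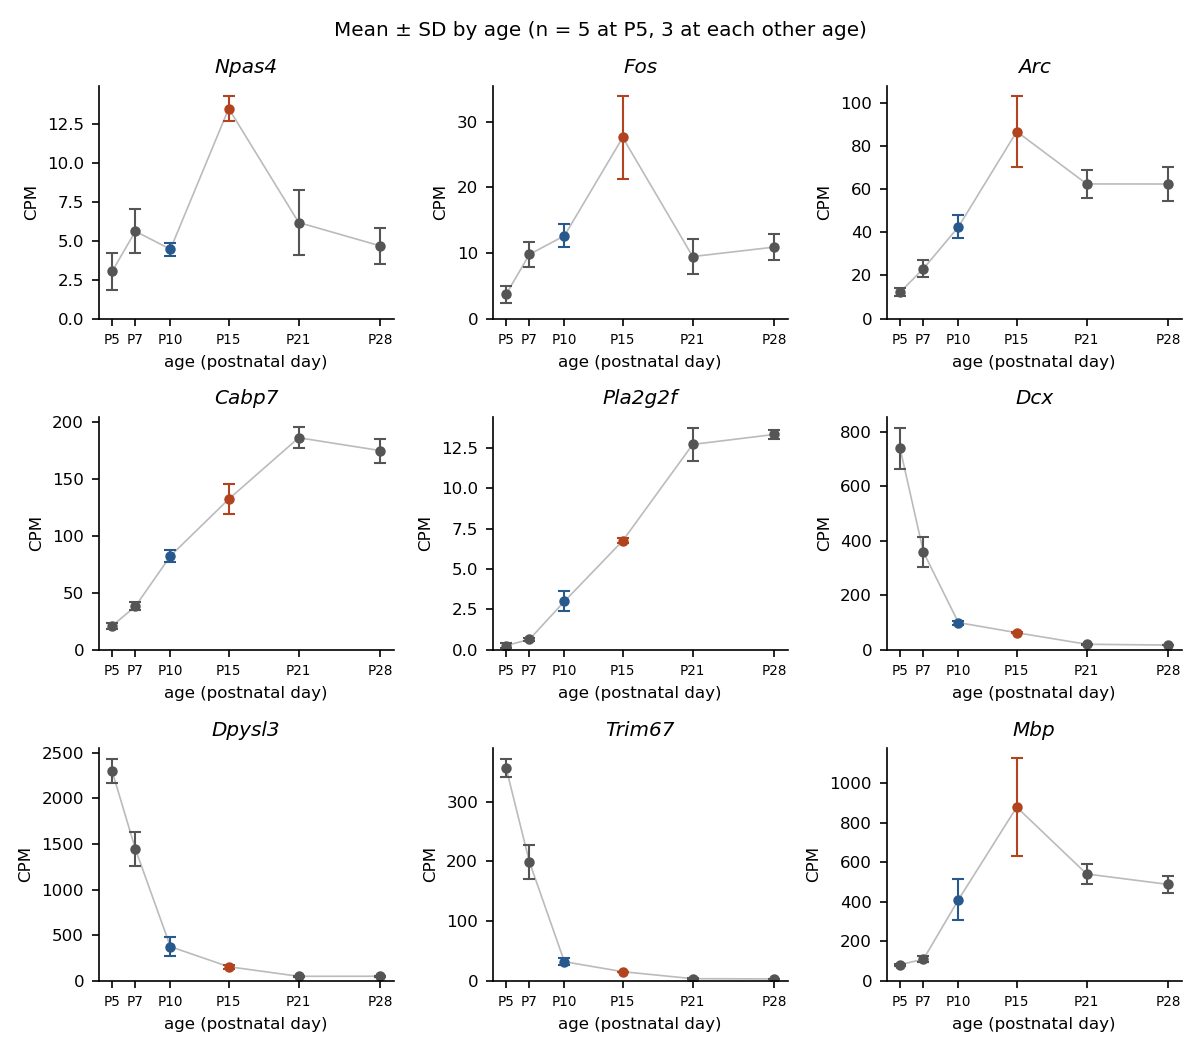
Mean CPM ± SD (vertical axes from 0) of 9 genes at each age from P5 to P28 (n = 5 at P5 and 3 at each other age), with P10 and P15 in color. Npas4, Fos, Arc and Mbp had their highest mean at P15, Cabp7 and Pla2g2f were higher still at P21, and Dcx, Dpysl3 and Trim67 were lower at each later age shown from P10 to P21.

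The last step of the series, P28 against P21, shares no library with P15 against P10 and gave 39 called genes (0.254%). The difference between these steps, which last unequal times and lie in different batches, was past the threshold in 298 genes (1.94%), 150 above 0 (0.976%) and 148 below (0.963%). Arc differed by 1.03 on the log2 scale (adjusted p = 0.0301), with a mean of 62.4 at P28 and 62.5 at P21 CPM. Cabp7 differed by 0.78 (adjusted p = 0.000826) and Crmp1 by -0.37 (adjusted p = 0.0244). These counts were 1 and 1 with the spectrin covariate and 15 and 10 without P10 replicate 3. In both steps 4 genes were called (0.597% of the 670 and 10.3% of the 39). Bhlhe40 and Plk5 rose in both, and Prex2 and Glp2r rose in the earlier step and fell in the later one.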

How the data were processed

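The deposited table holds raw counts per gene, unnormalized, for 20 libraries. Per the labels, RNA on HA-tagged ribosomes was pulled from hippocampal lysate and made into stranded poly-A libraries. The submitters' processing notes list STAR 2.7.5b, featureCounts, SAMtools 1.10 and mm10. No source used here gives the annotation, strand setting or handling of multiply mapped reads, so near-identical and overlapping genes are uncertain. Coordinates are from GENCODE vM21 (31424 of 32245 symbols, 97.5%).

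Counts were tested with edgeR 4.0.16 (R 4.3.3) on all 20 libraries: TMM factors, the default low-count filter by age (15373 genes), a mean per age plus a batch term, 13 residual degrees of freedom, robust quasi-likelihood tests and Benjamini-Hochberg adjustment over all genes, with a threshold of 0.05. The biological coefficient of variation was 8.46%. CPM are relative to TMM-scaled totals, and an SE is the log2 change divided by the root of F. Libraries of an age differed by more than sampling noise (chi-square of 4.67 to 21.5 for each degree of freedom), so each is 1 sample. The 3-count floor covers counting error only.

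Members and the 41 gene lists were chosen with earlier results of these data known. Named are the 12 highest and 12 lowest log2 changes among called genes with at least 5 CPM at 1 age and no overlap, without predicted, pseudogene or sex-linked names. Further named are up to 3 called members per list and direction, 6 genes per direction of the step difference (no P15 call required, settled after a first run) and a panel of 29. Some of these genes are not reported here. The code was tested on simulated counts. Alternatives were other scalings and filters, DESeq2 1.42.0, limma-voom 3.58.1, fewer libraries, a replicate block, no batch term, each library left out and, chosen after seeing the data, 2 covariates.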

Additional observations from a re-analysis of the deposited data

Results flagged for a closer look

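Among the 24 genes named for the size of their change, 11 had a log2 change from P10 to P15 that differed from their change from P21 to P28 by a test of the difference itself (adjusted p = 0.0121 to 0.0471). These genes were chosen for their change from P10 to P15, which the difference contains, so the count is a description and supports nothing; 1.94% of all genes tested passed the same test. The difference was above 0 in 9 of the 11. It was 2.037 for Mal, 1.872 for Mobp, 1.526 for Mag, 1.281 for Ugt8a and 1.323 for Plxnb3, of which all but Plxnb3, a plexin gene, belong to the oligodendrocyte list. For Npas4 it was 2.001, for Fam107a 1.711, for Pla2g2f 1.105 and for Tmem88b 1.136. It was below 0 for Dpysl3 at -1.304 and for Palm3 at -1.06. The steps lie in different batches, and age and batch cannot be told apart in this difference. With the spectrin covariate 1 gene of all tested was past the threshold in each direction.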

How the results depend on the processing

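The 283 genes higher and 387 lower at P15 became 450 and 557 with DESeq2, 103 and 107 in the 6 libraries alone, 153 and 252 with no batch term, 75 and 148 with the Y-linked covariate and 104 and 159 with the spectrin covariate. Leaving out single libraries gave 42 to 552 higher and 66 to 921 lower. With a replicate block they were 223 and 305. Deviations of same-numbered P15 and P10 libraries from their age means correlated at r = -0.12, 0.00119 and -0.256. For other pairs r was -0.188 to 0.317. With 3 libraries an age, these values cannot tell whether the numbers pair them. The step difference (2369 above 0, 3295 below) became 1113 and 1938 with the spectrin covariate, and 1532 to 2437 and 2472 to 3308 with single libraries left out. The difference from the last step (150 above, 148 below) became 315 and 293 with DESeq2, 133 and 90 with limma-voom, 82 and 85 with the replicate block, 50 and 46 with no batch term, 88 and 85 with the Y-linked covariate, 1 and 1 with the spectrin covariate, and 15 to 441 and 10 to 613 with single libraries left out. The cause of these shifts was not tested. Under the other alternatives these 6 counts stayed within 1.5 times of the values first given, and 0 of the 102 named calls changed sign under any. With 3 libraries an age, small changes and genes near the 3-count floor are poorly resolved.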

Other observations

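Some lists described nowhere else held 1 or 2 calls. Over all genes tested 1.84% were higher and 2.52% lower at P15. For DNA methylation and chromatin genes the shares were 1.72% higher and 1.72% lower, near those of all genes. Among 58 DNA methylation and chromatin genes Dnmt3a, the de novo DNA methyltransferase, was lower at 226 ± 6.17 CPM at P15 and 281 ± 33.3 CPM at P10 (SD, n = 3 each; log2 change -0.31, SE 0.079, adjusted p = 0.0264), a call lost without P10 replicate 1, P10 replicate 3, P15 replicate 2 or P15 replicate 3 (adjusted p = 0.0572 to 0.223). Ezh1, a histone H3 lysine methyltransferase, was higher at 48.3 ± 1.34 CPM at P15 and 39.4 ± 3.28 CPM at P10 (SD, n = 3 each; log2 change 0.29, SE 0.073, adjusted p = 0.0222), a call lost without P10 replicate 1, P10 replicate 3, P15 replicate 2 or P15 replicate 3 (adjusted p = 0.0729 to 0.15). Grp, a neuropeptide gene, measured 53.5, 50.0 and 44.5 CPM at P15 and 72, 54.2 and 74.7 CPM at P10 (log2 change -0.44, SE 0.089, adjusted p = 0.00675), a call lost without P10 replicate 3 or P15 replicate 3 (adjusted p = 0.0679 to 0.0745). Of 27 neuropeptide genes it was the 1 called (3.7%). Of 37 cell cycle genes Cenpf and Ccnd2 were lower (5.41%). Of 22 neural stem and progenitor genes the 1 called (4.55%) was Fabp7, a fatty acid binding protein of radial glia. It was lower, at 11.2 ± 1.05 CPM at P15 and 17.5 ± 2.92 CPM at P10 (SD, n = 3 each). Its log2 change was -0.64 (SE 0.12, adjusted p = 0.00543). Most of that list went the other way, with 16 members above 0 and 6 below (median log2 change 0.19). At an unadjusted p below 0.05 6 of the 22 were higher and 2 lower. The call of Fabp7 stood without any single library and was lost with no batch term (adjusted p = 0.13). That of Cenpf was lost without P15 replicate 3 (adjusted p = 0.0679), and that of Ccnd2 without P10 replicate 1, P10 replicate 3, P15 replicate 2 or P15 replicate 3 (adjusted p = 0.0841 to 0.181).

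Among 31 monoamine and acetylcholine receptor genes Htr4, a serotonin receptor, averaged 17.1 ± 1.47 CPM at P15 and 12.8 ± 1.58 CPM at P10 (SD, n = 3 each; log2 change 0.43, SE 0.11, adjusted p = 0.0222). Chrna4, a nicotinic receptor subunit, averaged 36.6 ± 2.86 CPM at P15 and 47.1 ± 3.81 CPM at P10 (SD, n = 3 each; log2 change -0.37, SE 0.079, adjusted p = 0.00998). The call of Htr4 was lost without P10 replicate 1, P10 replicate 3 or P15 replicate 3 (adjusted p = 0.0791 to 0.147), and that of Chrna4 without P10 replicate 1, P10 replicate 3 or P15 replicate 3 (adjusted p = 0.0645 to 0.0901). Of 61 collagen and extracellular matrix genes 0 were called by edgeR, 3 higher and 3 lower by DESeq2 and 0 higher and 1 lower by limma-voom, with 6 higher and 6 lower at an unadjusted p below 0.05.

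The remaining lists are given with their shares, beside 1.84% higher and 2.52% lower over all genes tested. Of 59 transcription factors of neuronal maturation Glis3 was higher (1.69%) and Nfix, Klf7 and Tbr1 were lower (5.08%). Of 56 growth factor genes Pdgfb was lower (1.79%). Of 81 cytosolic ribosomal protein genes, which have many near-identical copies, Rpl41 and Rpl34 were lower (2.47%). Of 38 chaperone genes Hspa1b was higher (2.63%) and Hspa12a and Xbp1 were lower (5.26%). Of 26 glycolysis genes Pfkl was higher (3.85%). Of 23 thyroid hormone genes Aldh1a1 and Ier5 were higher (8.7%) and 1 was lower (4.35%). Of 20 interferon-induced and MHC class I genes the 1 called, H2-D1, was lower (5%). In that list 17 members had a log2 change above 0 and 3 below (median 0.13). At an unadjusted p below 0.05 2 of its members were higher and 1 lower. Of 13 mossy cell genes Ociad2 was higher (7.69%). Among 31 monoamine and acetylcholine receptor genes the other calls were Drd5, higher, and Chrm3, lower. With them 2 of that list were higher and 2 lower (6.45% each). All of these calls were lost when single libraries were left out (adjusted p = 0.0537 to 0.318 where lost). That of Rpl34 was lost without each of the 6 libraries in turn, those of Hspa1b, Pfkl, Ier5 and Drd5 without 5, and those of Nfix, Klf7, Tbr1, Pdgfb, Rpl41, Hspa12a and Xbp1 without 4. Those of Aldh1a1, Ociad2 and H2-D1 were lost without 3, that of Chrm3 without 2 and that of Glis3 without 1. Lists of 7 mitochondrially encoded, 19 endothelial and mural, 18 choroid plexus, ependymal, meningeal and blood and 5 sex-linked genes had 0 calls by edgeR or limma-voom, with 1 endothelial and mural gene higher by DESeq2 and 0 others by that tool. At an unadjusted p below 0.05 2 endothelial and mural genes were higher and 1 choroid plexus, ependymal, meningeal and blood gene was lower.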
